A study of Mus musculus with 6 samples.

Results

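The primary granule genes of promyelocytes were followed here in irradiated hematopoietic stem and progenitor cells with and without Tespa1. The set held 10 genes of the 55487 in the expression table: Mpo, Elane, Prtn3, Ctsg, Ms4a3, Nkg7, Cst7, Srgn, Ctsc and Serpinb1a. They were taken by name as genes of the granule or of its handling, and all 10 were among the 15332 genes with enough counts to be tested. Prtn3 is also one of the genes that the study labelled in its plots of these same libraries, so its direction is not independent evidence.

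Primary granules, also called azurophil granules, are the first granules that a neutrophil precursor builds. They are filled at the promyelocyte stage, and their genes are switched off as the cell matures to the myelocyte, when the secondary granule genes come on. Their matrix holds myeloperoxidase and a family of serine proteases, packed on a proteoglycan core and kept in check by inhibitors, and messages for several of these proteins are already present in granulocyte-monocyte progenitors.

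The cells were LSKs (lineage-negative, Sca-1+, c-Kit+ bone marrow cells), the gate that holds the stem cells and the earliest multipotent progenitors of mice. They came from irradiated Tespa1+/+ littermates (3 libraries) and irradiated Tespa1-/- mice (3 libraries). Per the methods of the study, Tespa1-/- stands for the germline line B6.129S-Tespa1tm1Smoc, backcrossed to C57BL/6 for more than 6 generations. The mice were males of 8 to 10 weeks that received 5.0 Gy of total body irradiation, and the LSKs were taken at day 13. Both groups were irradiated, so no value here compares irradiated with unirradiated cells, and a germline allele is carried by every cell of the mouse, not by LSKs alone. The labels do not say whether the replicates of a group were single mice, pools or preparations of 1 pool, and the p-values then measure only the spread between these samples.

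The libraries held between 12856630 and 30576981 counts. Tespa1, the targeted gene, read 34.4 ± 1.62 counts per 1000000 counts (CPM) in the Tespa1+/+ libraries and 14.6 ± 0.63 in the Tespa1-/- libraries (SD, n = 3 each; log2 fold change -1.23 ± 0.07 SE, adjusted p 7.0e-06 by edgeR). Every library was therefore on the side of its label, although signal remained, and which part of the gene the allele removes is not given in the sources used here. The surface genes of the gate were present in all libraries. Kit, which encodes c-Kit, was called lower with 333 ± 9.79 and 169.6 ± 6.13 CPM (edgeR adjusted p 2.1e-06), and Ly6a, which encodes Sca-1, read 50.5 ± 11.6 and 40.4 ± 3.36 CPM with overlapping groups (edgeR adjusted p 0.11). CPM were scaled by TMM factors, errors are SD over 3 libraries a group unless given as SE, and a gene was called higher or lower when its adjusted p was under 0.05 and its fold above 1.5.

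All 10 primary granule genes were higher in the Tespa1-/- LSKs. Each had an adjusted p under 0.05 by edgeR's quasi-likelihood test, where 31.5% of all genes tested were higher at that threshold. With the fold of 1.5 added, 8 of the 10 were called higher and none lower, against 14.0% of all genes tested called higher. In each of the 10, the lowest Tespa1-/- library stood above the highest Tespa1+/+ library in CPM, a pattern that 34.5% of all genes tested showed in that direction. The 2 that missed the fold were Mpo and Ctsc. The median log2 fold change was 0.88 over the 10 genes and -0.0003 over all genes tested. In a sorted bulk sample, more cells that carry a granule message and more of that message in each cell cannot be told apart.

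**Figure D1:**
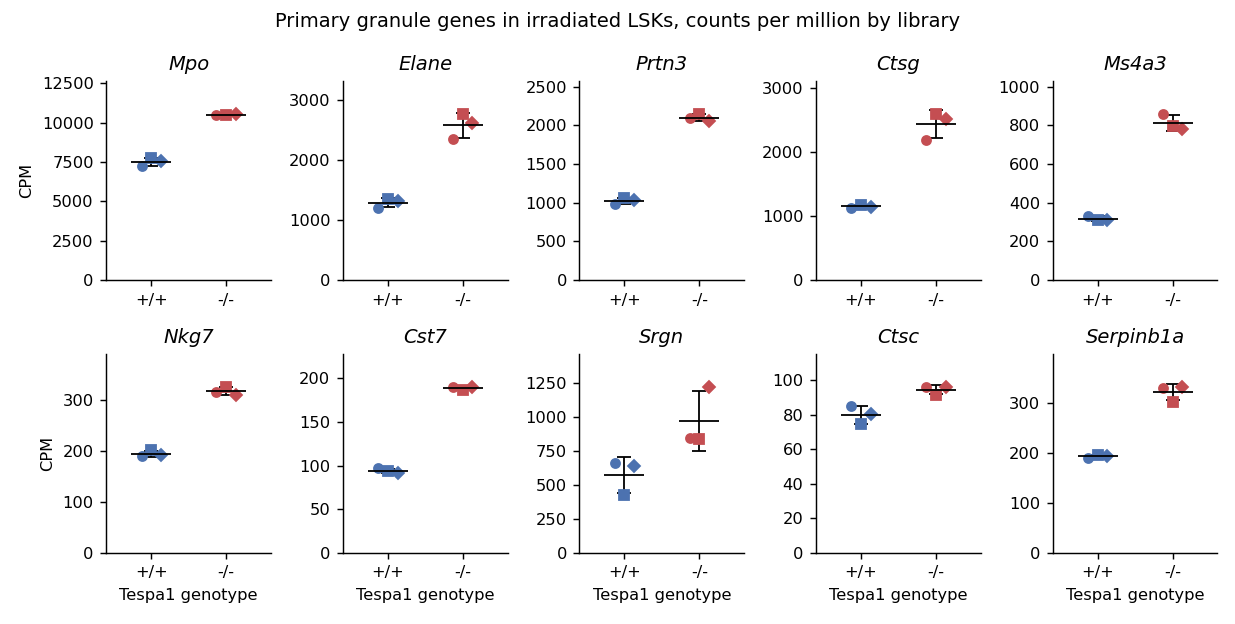
CPM of the 10 primary granule genes in each library of irradiated LSKs, by Tespa1 genotype; circles, squares and diamonds are replicates 1, 2 and 3, horizontal bars are group means and whiskers are SD (n = 3), and each vertical axis starts at 0. In all 10 panels the Tespa1-/- points lie above the Tespa1+/+ points, with the narrowest gap for Ctsc and the widest spread for Srgn.

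The stretches just before the starts of 5 members are shown because these genes hold the peroxidase, the serine protease trio and the member that rose most. The sequences are from RefSeq (GRCm38.p6), which listed 9 of the 10 members, and are written from 5′ to 3′ on the strand of the gene. Each window ran over the 250 bases before the RefSeq start, and the letters are cut where an exon of the gene in GENCODE M21 begins inside the window. Capitals mark the letters of 5 short motifs known from factors of the granulocyte line, searched on both strands: GAGGAA (the PU.1 core), TTGCNNAA (C/EBP), TGTGGT (RUNX), CAACTG (MYB) and AAATCA (GFI1). Mpo is chr11:87793534-87793580 (plus strand), Elane is chr10:79886062-79886246 (plus), Prtn3 is chr10:79879417-79879613 (plus), Ctsg is chr14:56102575-56102824 (minus) and Ms4a3 is chr19:11640852-11641101 (minus).
Mpo: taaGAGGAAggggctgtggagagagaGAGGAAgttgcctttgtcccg
Elane: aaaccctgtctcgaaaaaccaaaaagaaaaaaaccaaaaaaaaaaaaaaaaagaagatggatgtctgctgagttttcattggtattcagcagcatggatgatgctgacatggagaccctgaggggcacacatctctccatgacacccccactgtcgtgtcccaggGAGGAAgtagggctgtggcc
Prtn3: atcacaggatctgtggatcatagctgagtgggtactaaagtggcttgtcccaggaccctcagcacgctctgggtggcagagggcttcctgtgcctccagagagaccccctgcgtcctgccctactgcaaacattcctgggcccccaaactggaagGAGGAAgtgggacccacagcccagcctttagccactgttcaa
Ctsg: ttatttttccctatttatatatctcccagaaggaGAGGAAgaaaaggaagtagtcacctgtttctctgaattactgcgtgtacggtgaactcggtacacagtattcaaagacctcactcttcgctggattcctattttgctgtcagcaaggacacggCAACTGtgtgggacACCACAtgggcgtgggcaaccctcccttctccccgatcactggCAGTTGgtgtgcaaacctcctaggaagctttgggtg
Ms4a3: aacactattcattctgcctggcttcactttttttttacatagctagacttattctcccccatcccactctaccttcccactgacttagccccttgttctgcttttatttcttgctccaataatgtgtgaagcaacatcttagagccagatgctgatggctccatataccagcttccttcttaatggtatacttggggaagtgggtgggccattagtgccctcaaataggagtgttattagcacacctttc

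Mpo and the 3 serine protease genes each held GAGGAA on the gene's own strand. Counted to the RefSeq start, it began 247 and 224 bases before that of Mpo, 85 before Elane, 95 before Prtn3 and 216 before Ctsg. The RefSeq starts of Mpo (87793784), Elane (79886312) and Prtn3 (79879667) lie inside the gene coordinates given below, as does the whole window of Prtn3. The second match of Mpo and those of Elane and Prtn3 read on as GAGGAAGT, a longer form noticed after the letters were read, as did a match of Ctsc on the opposite strand; 2.44% of all windows hold it on either strand. Ctsg also held CAACTG on both strands and TGTGGT on the opposite strand, where it reads ACCACA. Ms4a3, the member with the largest rise, held none of the 5 in its 250 bases. Over the 9 members with a window, the PU.1 core was in 5 (23.3% of all 32851 RefSeq windows of that length), TGTGGT in 4 (14.0%) and CAACTG in 3 (11.1%), while TTGCNNAA (9.56%) and AAATCA (12.4%) were in none. Of the 17 matches in these windows, 0 overlapped one another. A match is a description of these letters and not a bound site.

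Mpo encodes myeloperoxidase, the heme enzyme that turns hydrogen peroxide and chloride into hypochlorous acid, and it was the most abundant member by count. It lies on chromosome 11 (87793581 to 87804413, plus strand; ENSMUSG00000009350). The Tespa1+/+ libraries read 7260.4, 7734 and 7576 CPM and the Tespa1-/- libraries 10473, 10488 and 10543 CPM. Mpo had the highest count of all genes in 5 of the 6 libraries and the second highest in the other, Tespa1+/+ replicate 1. Its group means were 7524 ± 241 and 10501 ± 36.7 CPM (log2 fold change 0.48 ± 0.02 SE, adjusted p 5.0e-06 by edgeR). The groups did not overlap, and the fold of 1.40 kept Mpo below the call. The antisense gene Gm11505 shares 512 exon bases with Mpo, and since the use of strand in counting is not given in the sources used here, reads of the pair cannot be told apart; Gm11505 itself read 14.8 and 16.3 CPM.

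Elane, Prtn3 and Ctsg encode neutrophil elastase, proteinase 3 and cathepsin G, the serine proteases of the granule, and all 3 were close to 2 times higher in Tespa1-/- LSKs. Elane and Prtn3 are neighbours on chromosome 10, with Elane at 79886247 to 79888215 (plus strand; ENSMUSG00000020125) and Prtn3 at 79874476 to 79883174 (plus strand; ENSMUSG00000057729), and 3073 bases lie between them. Elane read 1205, 1356 and 1308 CPM in the Tespa1+/+ libraries and 2350.0, 2760 and 2609 in the Tespa1-/- libraries. The means were 1289.8 ± 77.4 and 2573 ± 207 CPM (log2 fold change 0.996 ± 0.07 SE, adjusted p 1.6e-05 by edgeR), and the groups lay far apart compared with the spread inside either.

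Prtn3 read 983, 1060 and 1037 CPM in Tespa1+/+ and 2094, 2143 and 2058 CPM in Tespa1-/- LSKs. Its mean rose from 1026 ± 39.6 to 2098 ± 42.7 CPM (log2 fold change 1.03 ± 0.03 SE, adjusted p 1.2e-06 by edgeR). It was the tightest of the trio in the Tespa1-/- group. Exons of Prtn3 share 159 bases with Plppr3 on the opposite strand, so its count is less certain than that of Elane, and Plppr3 rose by a log2 fold change of 0.33 (edgeR adjusted p 0.00055) without being called.

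Ctsg lies on chromosome 14 (56099881 to 56102574, minus strand; ENSMUSG00000040314), in the locus that also holds granzymes and mast cell proteases. It read 1128, 1175 and 1148 CPM in Tespa1+/+ libraries and 2183, 2587 and 2519 CPM in Tespa1-/- libraries. The rise from 1150.3 ± 24.1 to 2430 ± 216 CPM gave a log2 fold change of 1.08 ± 0.06 SE (adjusted p 8.0e-06 by edgeR). Replicate 1 of the Tespa1-/- group was the lowest of its group for both Elane and Ctsg, and still stood above all Tespa1+/+ libraries.

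Ms4a3 showed the largest rise of the set. It encodes a membrane protein of the MS4A family that is expressed in granulocyte-monocyte progenitors, and it lies on chromosome 19 (11629496 to 11640851, minus strand; ENSMUSG00000024681). The Tespa1+/+ libraries read 331, 312 and 309.6 CPM and the Tespa1-/- libraries 858, 796 and 783 CPM. The means were 317.6 ± 12 and 812.5 ± 40.1 CPM (log2 fold change 1.36 ± 0.04 SE, adjusted p 1.3e-06 by edgeR), and no library of one group came near the other.

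Nkg7 encodes a granule membrane protein best known from natural killer and cytotoxic T cells, where it takes part in granule exocytosis. It lies on chromosome 7 (43437073 to 43438249, plus strand; ENSMUSG00000004612) and read 190.4, 201 and 191 CPM in Tespa1+/+ against 315.6, 325 and 309.7 CPM in Tespa1-/- libraries. The log2 fold change was 0.71 ± 0.03 SE (adjusted p 4.4e-06 by edgeR). Of 14 listed genes that mark natural killer and cytotoxic T cells, 6 were tested, 0 were called higher and 4 lower. Over all 15332 genes tested, 2148 were called higher and 2951 lower. The summed level of the list was 13.5 to 14.1 CPM in Tespa1+/+ and 6.54 to 8.21 CPM in Tespa1-/- libraries, far below that of Nkg7. The part of such cells in the values of Nkg7 was not tested. Ncr1, a receptor of natural killer cells, had 0 counts in 5 of the 6 libraries, and Cd3e, a chain of the T cell receptor complex, had 0 counts in all Tespa1-/- libraries. Klrk1, another gene of the list, had between 16 and 88 counts.

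Srgn encodes serglycin, the proteoglycan on which proteases are packed, and it was the most variable member. It lies on chromosome 10 (62493833 to 62527451, minus strand; ENSMUSG00000020077), with more than 1 RefSeq start, and counts per gene do not separate them. The Tespa1+/+ libraries read 657, 422 and 637 CPM and the Tespa1-/- libraries 846, 837 and 1219.5 CPM. The lowest Tespa1+/+ value, in replicate 2, and the highest Tespa1-/- value, in replicate 3, set most of the spread, but the groups did not overlap. The means of 572 ± 130.2 and 967.5 ± 218 CPM gave a log2 fold change of 0.76 ± 0.20 SE (adjusted p 0.014 by edgeR). Without Tespa1-/- replicate 3 the log2 fold change was 0.57 (edgeR adjusted p 0.035), which is under the fold of 1.5, so 7 members were then called. Without Tespa1+/+ replicate 2 it was 0.59 (edgeR adjusted p 0.027), and the call stayed.

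The genes that activate or restrain granule proteases rose to different extents. Ctsc encodes cathepsin C (dipeptidyl peptidase I), which trims the pro-forms of the serine proteases to active enzymes, and lies on chromosome 7 (88278085 to 88310888, plus strand; ENSMUSG00000030560). It had the smallest difference of the set, with 84.8, 74.5 and 80.4 CPM in Tespa1+/+ and 95.7, 91.5 and 96.1 CPM in Tespa1-/- libraries. The groups stood apart by a narrow margin, and the log2 fold change of 0.24 ± 0.05 SE (adjusted p 0.0065 by edgeR) was a fold of 1.18. Scaling by total counts alone left 0.14 with an edgeR adjusted p of 0.058, past the threshold.

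Cst7 encodes cystatin F, an inhibitor of cathepsin C and other cysteine cathepsins, and lies on chromosome 2 (150570415 to 150578944, plus strand; ENSMUSG00000068129). It read 96.7, 93.3 and 91.5 CPM in Tespa1+/+ and 190.1, 187 and 189.4 CPM in Tespa1-/- libraries (log2 fold change 1.01 ± 0.03 SE, adjusted p 1.4e-06 by edgeR). The log2 ratio of Cst7 to Ctsc counts was 0.19, 0.32 and 0.19 in Tespa1+/+ libraries and 0.99, 1.03 and 0.98 in Tespa1-/- libraries. Ctsc is much the longer gene, and the gap of 0.77 between the log2 fold changes of this inhibitor and its target was 0.30 or 0.17 when a trend with gene length was taken out in the edgeR fit, using the length implied by the deposited counts and FPKM or the union exon length.

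Serpinb1a encodes a serpin that inactivates elastase, proteinase 3 and cathepsin G, and lies on chromosome 13 (32842092 to 32851185, minus strand; ENSMUSG00000044734). It read 190.4, 195 and 194 CPM in Tespa1+/+ and 330.3, 302 and 332 CPM in Tespa1-/- libraries. The log2 fold change was 0.73 ± 0.04 SE (adjusted p 8.0e-06 by edgeR). Ratios to the 3 proteases were taken within each library: the log2 ratio of Elane to Serpinb1a counts went from a mean of 2.74 to 3.00, that of Prtn3 from 2.41 to 2.71 and that of Ctsg from 2.57 to 2.92, with no overlap between the groups. With the trend with gene length taken out (implied length, then union exon length), the gap in log2 fold change to Serpinb1a was 0.01 and 0.03 for Elane, 0.31 and 0.22 for Prtn3 and 0.21 and 0.13 for Ctsg, so the higher rise of Elane was not seen there.

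Levels of different genes were compared per unit of length, on the deposited FPKM scale. In Tespa1+/+ LSKs the order of mean FPKM was Mpo (1615), Elane (1355), Ctsg (842), Prtn3 (358), Srgn (152), Nkg7 (125), Ms4a3 (121), Cst7 (98.4), Serpinb1a (73.2) and Ctsc (12.2). Srgn, Nkg7 and Ms4a3 overlapped in their ranges and had no clear order among themselves. In Tespa1-/- LSKs Elane came first at 2522 ± 206 FPKM, ahead of Mpo at 2103 ± 8.46 FPKM, and the lowest Elane library (2300.2) stood above the highest Mpo library (2112). In the Tespa1+/+ group the same neighbours stood the other way, with the lowest Mpo library at 1561 and the highest Elane library at 1423 FPKM. The gap between the log2 fold changes of Mpo and Elane behind this order was -0.17 or -0.15 with the length offsets, against -0.52 without. The order itself rests on the gene length behind FPKM. The deposited values of Mpo imply more bases than its union exon length of 3424. With that shorter length, Mpo would lead in either group. Ms4a3 moved from the seventh to the fifth place (288 FPKM), where its range overlapped that of Srgn (239.9), and Ctsc stayed last at 13.5 FPKM.

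**Figure D2:**
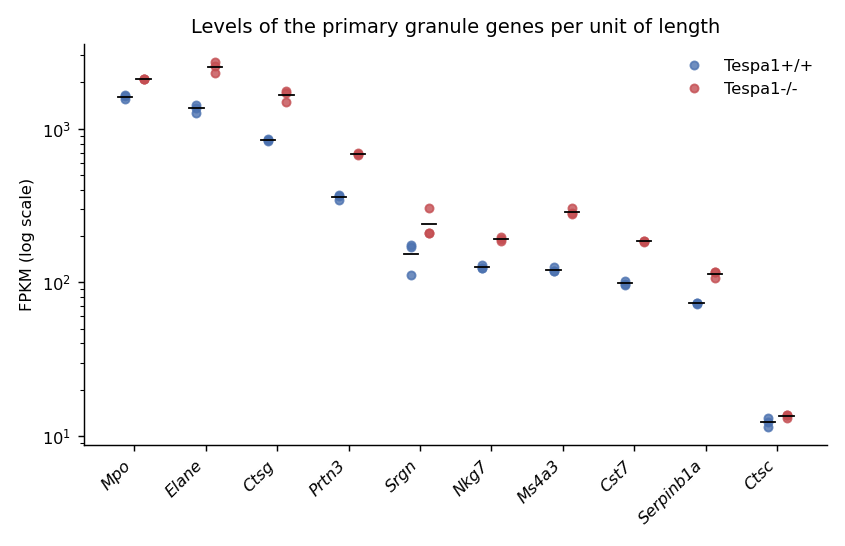
Deposited FPKM of each primary granule gene (log axis), ordered by the Tespa1+/+ mean; points are libraries (3 a group) and short lines are group means. On this scale Mpo leads in the Tespa1+/+ libraries and Elane in the Tespa1-/- libraries, and Ctsc is lowest in both. The order of Mpo and Elane in the Tespa1-/- libraries depends on the gene length used.

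The 10 genes together took 1.25%, 1.30% and 1.30% of all counts in the Tespa1+/+ libraries and 1.90%, 1.98% and 1.99% in the Tespa1-/- libraries. The mean share went from 1.29 ± 0.027% to 1.96 ± 0.050% (SD, n = 3 each), a ratio of 1.52. A two-sided exact permutation test gave p = 0.1, the smallest value that 3 against 3 libraries can give. Mpo made up most of this share, and without it the ratio was 1.86. The serine protease trio alone took 0.358 ± 0.014% and 0.685 ± 0.043% of counts, a ratio of 1.91.

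Mpo was 60.5 ± 0.72% of the counts of the 10 genes in Tespa1+/+ LSKs and 51.7 ± 1.15% in Tespa1-/- LSKs, with no overlap. Ratios of counts within a library do not depend on how libraries are scaled, but they do carry any trend with gene length. Of the 45 pairs among the 10 genes, 30 (66.7%) had log2 ratios that did not overlap between the groups, close to the 64.0% of all pairs of tested genes with a count above 0 in every library, so the count says nothing particular about the members. Elane, Prtn3, Ctsg and Cst7 had overlapping ratios to one another, with shifts of the mean log2 ratio between -0.08 and 0.07, and Nkg7 to Serpinb1a shifted by -0.03. With the length offsets (implied length, then union exon length) the gap in log2 fold change between Nkg7 and Serpinb1a was -0.13 and -0.28, and that between Elane and Prtn3 was -0.30 and -0.19. Against Elane, Prtn3, Ctsg and Cst7, the ratio of Mpo fell by 0.51 to 0.59 on the log2 scale. These gaps were smaller with the offset on union exon length, at -0.15 to Elane, -0.34 to Prtn3, -0.25 to Ctsg and -0.16 to Cst7. Ms4a3 rose against the same 4 genes in counts, and with the union exon length its gaps were 0.54 over Elane, 0.34 over Prtn3, 0.44 over Ctsg and 0.52 over Cst7. Of the 9 pairs with Srgn, 8 overlapped, the exception being Srgn against Ctsc.

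Exon length (the bases covered by any exon of a gene) went along with the fold change across all genes, and most members are shorter than the median gene. Over the shortest decile of genes the median was 0.54 on the log2 scale, and over the longest it was -0.56. Each member stood above the median of its own decile, by 0.30 for Nkg7 to 1.06 for Ms4a3. When the trend with union exon length was taken out by an offset in the edgeR fit, the median over the members was 0.68 while that of all genes moved to 0.11, and 7 members were called higher. Nkg7 was then at 0.37 and lost its call, Mpo was at 0.53, and Ctsc rose to 0.53. Ms4a3 stayed highest at 1.22. The order within the set thus moved with the length offset, while the direction did not.

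**Figure D3:**
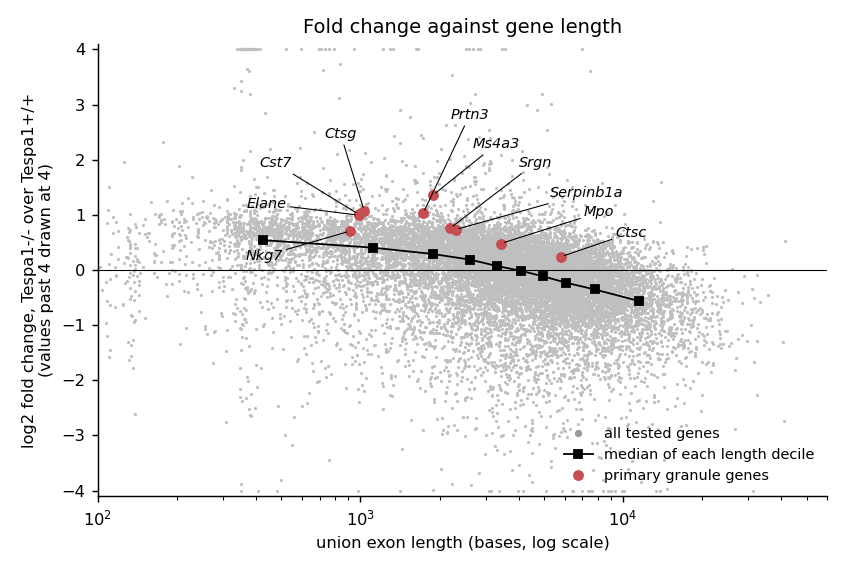
Log2 fold change, Tespa1-/- over Tespa1+/+, against union exon length (log axis) for all genes tested (grey), the median of each decile of length (black squares) and the 10 primary granule genes (red). The medians fall from 0.54 to -0.56 with length, and all 10 members lie above the line of medians.

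Mpo and the serine protease genes were also among the most highly expressed genes of these cells. Of the 80 tested genes with a mean of at least 1000 CPM, 28.8% were called higher and the median log2 fold change was 0.46, against 14.0% and -0.0003 for all genes. Mpo, Elane, Prtn3 and Ctsg belong to these 80, and the last 3 were called.

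Other genes of the granule pathway, taken from lists, had lower medians than the members. Over all 15332 genes tested, 14.0% were called higher and 2951 genes were called lower, the background for the counts of every list below. The list values come from the fit without a length offset, so they carry the trend with gene length. Of 13 further azurophil and lysosomal genes, 12 were tested, 3 were called higher and 0 lower, with a median of 0.32. The 3 were Prss57, a serine protease of the same granule, from 94.7 ± 2.46 to 183 ± 5.32 CPM (log2 fold change 0.95, edgeR adjusted p 2.2e-06), the cathepsin gene Ctsz (0.91, edgeR adjusted p 1.3e-06) and Cd63, a tetraspanin of the granule membrane (0.78, edgeR adjusted p 1.1e-05). Lyz2, the lysozyme of macrophages and granulocytes, read 100.2 ± 2.22 and 97.7 ± 3.74 CPM (log2 fold change -0.04, edgeR adjusted p 0.47). The lysosomal enzymes Man2b1, Gaa and Arsb also had adjusted p-values above 0.05.

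Of 16 listed inhibitors of granule or lysosomal proteases, 9 were tested, 3 were called higher and 2 lower (median 0.30). Slpi, a secreted inhibitor of elastase, rose from 43.3 to 80.3 CPM (log2 fold change 0.89, edgeR adjusted p 7.9e-06) and Cstb, stefin B, from 17.4 to 28.1 CPM (0.70, edgeR adjusted p 0.00012). Stfa1 was also called, at 0.011 ± 0.018 CPM in Tespa1+/+ and 0.84 ± 0.19 CPM in Tespa1-/- LSKs (edgeR adjusted p 0.00024), and it passed the filter only through the Tespa1-/- libraries. Serpinb6b and Serpinb9 were lower, with log2 fold changes of -0.59 (edgeR adjusted p 0.0042) and -0.74 (edgeR adjusted p 0.0047). Calls in both directions were also common among all genes tested.

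Of 16 genes for sorting into granules, exocytosis or congenital neutropenia, 3 were called higher and 1 lower. The count called higher was near the 14.0% of all genes tested, so it says nothing particular about the list. Hax1 and Jagn1, whose loss causes neutropenia, rose by 0.86 (edgeR adjusted p 0.00057) and 0.74 (edgeR adjusted p 7.3e-05) on the log2 scale. Vps13b, mutated in Cohen syndrome, was lower at -1.43 (edgeR adjusted p 1.4e-06). The AP-3 subunit gene Ap3s1 was called higher at 1.38 (SE 0.41, edgeR adjusted p 0.021), with a wide spread in the Tespa1+/+ group (81.2 ± 45.1 CPM, lowest in replicate 2, as for Srgn).

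Among 12 transcription factors that act on granule genes, 2 were called higher and 3 lower (median 0.19). Both counts were near the shares over all genes tested. Cebpe, the C/EBP factor of the promyelocyte to myelocyte step, rose from 25.6 ± 1.28 to 71.0 ± 1.40 CPM (log2 fold change 1.47, edgeR adjusted p 1.7e-06), and Spi1, which encodes PU.1, from 168 ± 7.59 to 268 ± 5.86 CPM (0.67, edgeR adjusted p 1.0e-05). Gfi1, a repressor needed for neutrophil differentiation, and Cebpa, which starts the granulocyte programme, were higher below the fold of 1.5, at 0.52 and 0.33 (edgeR adjusted p 0.0002 and 0.00046). Cux1, Irf8 and Lef1 were called lower, and Irf8, the factor of the monocyte branch, overlapped between the groups with 233.5 ± 56.2 and 129 ± 54.3 CPM (edgeR adjusted p 0.038). Runx1 and Myb were lower without passing the fold, at -0.53 and -0.19 (edgeR adjusted p 0.0013 and 0.00033).

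Markers of the stages before and after the promyelocyte were also higher. Of 14 markers of granulocyte-monocyte and early neutrophil progenitors, 7 were called higher and 1 lower (median 0.60), among them Hp, haptoglobin (1.63, edgeR adjusted p 4.0e-06), and Fcnb, a ficolin of early neutrophil precursors (2.42, edgeR adjusted p 7.4e-06), while Cd34 was lower (-0.77, edgeR adjusted p 1.4e-06). Of 14 secondary and tertiary granule genes, 13 were tested and 12 called higher, with a median of 5.35, against 0.88 for the primary granule genes. Ltf, Camp, Ngp, Mmp9, Mmp25, Chil3, Cd177 and Retnlg had few counts in Tespa1+/+ libraries, such as Retnlg (1, 0 and 0) and Camp (7, 0 and 3). These passed the count filter only through the Tespa1-/- libraries, so their calls and fold changes are no independent result. The median of 5.35 is the value of Mmp9, so it carries the same limit. The level of the whole list was much lower, however. Summed, it was 52.5 to 54.1 CPM in Tespa1+/+ and 530.0 to 557 CPM in Tespa1-/- libraries. The 10 members summed to 12106 to 12602 and 19711 to 20632 CPM. Ltf, lactoferrin, went from 0.17 ± 0.16 to 48.7 ± 1.51 CPM, with 0, 10 and 3 counts in the Tespa1+/+ libraries. Of 11 genes of LSKs and stem cells, 9 were called lower and 0 higher (median -1.05), where 2951 of all 15332 genes tested were called lower. The part that the makeup of the sorted cells had in the rise of the primary granule genes was not tested.

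**Figure D4:**
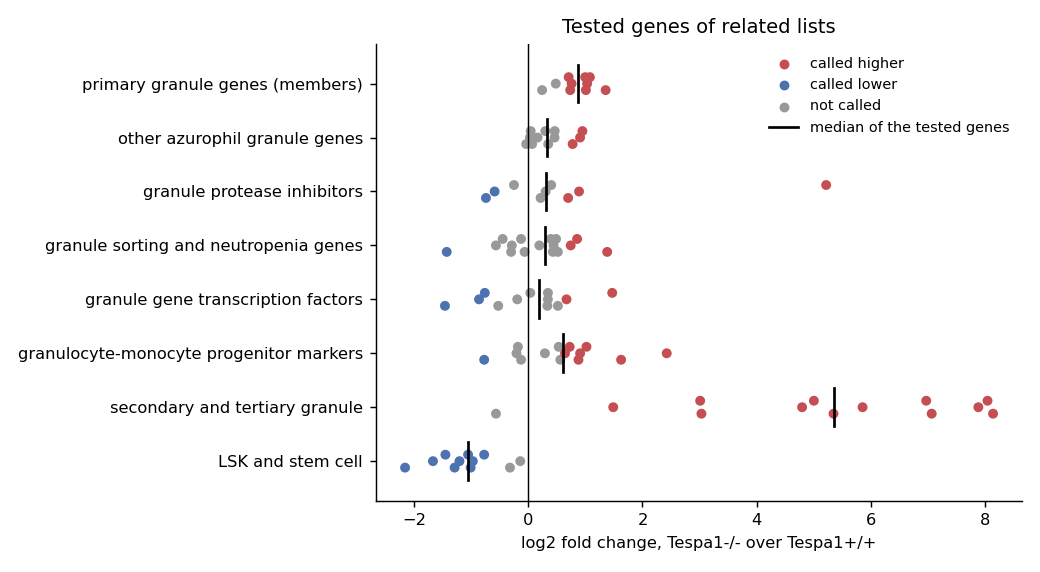
Log2 fold change, Tespa1-/- over Tespa1+/+, of every tested gene in the 10 primary granule genes, 6 related lists and the LSK list; points are genes, coloured by call, and black ticks are medians over the tested genes. The primary granule genes have a median of 0.88, the secondary and tertiary granule genes 5.35 and the LSK genes -1.05. Several secondary and tertiary granule genes passed the filter only through the Tespa1-/- libraries.

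Relatives of the members known from eosinophils, basophils, mast cells and cytotoxic cells had low levels in these cells. Epx, the eosinophil peroxidase related to Mpo, read 0.61 ± 0.17 CPM in Tespa1+/+ and 5.76 ± 1.03 CPM in Tespa1-/- LSKs. It belongs to an eosinophil list of which 5 of 6 tested genes were called higher, at summed levels of 17.8 to 21.2 and 47.5 to 51.4 CPM. Epx, Ear1, Ear2 and Ear6 of that list had few or no counts in Tespa1+/+ libraries and passed the filter only through the Tespa1-/- libraries. Their calls are no independent result, and of the genes called only Prg2 passed the filter in the Tespa1+/+ libraries too. Of 14 granzyme and mast cell protease genes of the Ctsg locus, 2 were tested and 0 called. Of these, Mcpt8, a protease of basophils, read 18.9 ± 0.40 and 28.3 ± 3.20 CPM (0.58, edgeR adjusted p 0.0011), just under the fold of 1.5, and 10 of the 14 had at most 3 counts in every library. Mast cell and basophil markers had 0 of 7 tested genes called higher and 3 lower, with sums of 185 to 223 and 145 to 167 CPM. Monocyte and macrophage markers had 2 of 9 called higher and 3 lower, at 689 to 722 and 838 to 901 CPM. Among the genes called lower, Prss34 and Mrc1 passed the filter only through the Tespa1+/+ libraries.

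Genes that lie next to the members were called about as often as genes at large. Within 50 kb of a member there were 59 other annotated genes, of which 32 were tested, 4 called higher (12.5%, against 14.0% of all genes tested), 4 called lower and 24 neither (median 0.11). Etfb, which encodes a subunit of the electron transfer flavoprotein of mitochondria and lies 5.83 kb from Nkg7, was the most abundant of those called higher, from 178 to 379.9 CPM (1.10, edgeR adjusted p 2.1e-06). The pseudogene Gm19810, which lies 497 bases from Elane on the same strand, was higher at 0.82 (edgeR adjusted p 1.8e-05), while its reads may also be those of a parent gene, and Med16, 6.49 kb from Elane, was at -0.06 (edgeR adjusted p 0.26). Tspoap1, 7.65 kb from Mpo, was called lower at -0.91 (edgeR adjusted p 1.4e-05), as was Ms4a2, the mast cell receptor chain 5.78 kb from Ms4a3, at -1.33 (edgeR adjusted p 0.0024). Ms4a6d, in the same cluster as Ms4a3, was called higher from 1.91 to 6.52 CPM (1.75, edgeR adjusted p 0.00076).

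In the T cell, B cell and megakaryocyte lists no tested gene was called higher. T cell markers had 0 of 4 tested genes called higher and 3 lower (sums of 18.1 to 19.2 and 7.81 to 9.73 CPM), B cell markers 0 of 7 and 5 (55.9 to 61.6 and 39.4 to 43.4 CPM), and megakaryocyte markers 0 of 6 and 3 (121 to 128 and 70.2 to 74.3 CPM). Of the genes called lower, Cd4, Cd28 and Pax5 passed the count filter only through the Tespa1+/+ libraries. Erythroid markers had 4 of 8 called higher and 3 lower, at sums of 35.6 to 37.7 and 52.3 to 55.8 CPM. The higher ones were the globin genes Hba-a1, Hba-a2 and Hbb-bs, and Slc4a1. Hba-a2 and Slc4a1 passed the filter only through the Tespa1-/- libraries, so their calls are no independent result. The part of these cells in the members' values was not tested.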

How the data were processed

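RNA was sequenced from LSKs of irradiated Tespa1+/+ and Tespa1-/- mice (3 libraries each) as poly-A selected, stranded, paired-end libraries on an Illumina NovaSeq. The authors deposited, for each gene and library, raw counts and FPKM, the latter per kilobase of gene and per 1000000 counted fragments. The submitters' processing notes name CASAVA 1.8, HISAT2, StringTie, edgeR and the build GRCm38. The annotation release, the counter and its use of strand are not given in the sources used here. Of the 55487 genes, 55227 were found in GENCODE M21, which gave exon lengths and neighbours.

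Counts were tested with edgeR 4.0.16 (R 4.3.3): filterByExpr, TMM, quasi-likelihood F-test, Benjamini-Hochberg adjustment over 15332 genes, and a call at adjusted p under 0.05 and fold over 1.5. The SE was taken from the fold change and F. CPM used TMM-scaled library sizes. Alternatives used DESeq2 1.42.0, limma 3.58.1 on log2(FPKM + 1) or log2(FPKM + 0.1), edgeR's glmTreat, other scalings and filters, a loess offset on gene length, a replicate block and leaving out each library. The scripts were tested on simulated data.

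The members and all lists were chosen with earlier results of these data known, and no set test was made. Named genes were the members, Tespa1, genes of the lists and tested neighbours within 50 kb. Libraries of 12856630 to 30576981 counts limit low genes most. Reads carried no molecular identifiers, so counting error alone does not cover amplification.

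The shared replicate numbers did not pair the libraries: the correlations of same-numbered libraries' deviations from the group means were -0.07, -0.08 and 0.01.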

Additional observations from a re-analysis of the deposited data

How the results depend on the processing

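Of the 10 members, 7 or 8 were called higher under every alternative run. It was 7 with glmTreat, without Tespa1-/- replicate 3, with limma on log2(FPKM + 1) without a filter, with either length offset and at an adjusted p under 0.01. Single genes (the members and Tespa1) had 198 values under alternatives, judged by direction and an adjusted p under 0.05 alone. Of these, 190 stayed the same, 8 no longer passed that threshold and 0 reversed. The fold of 1.5 is not part of this count. Nkg7 with either length offset (0.55 and 0.37) and Srgn without Tespa1-/- replicate 3 (0.57) lost their calls but are among the 190. The 8 that no longer passed were Mpo, Srgn and Ctsc with glmTreat, which tests against a fold of 1.5, Srgn with unfiltered FPKM (limma adjusted p 0.08), and Ctsc with total counts (edgeR adjusted p 0.058) and the 3 FPKM fits (limma adjusted p 0.068 to 0.11). The median over the members was 0.70 with the offset on the gene length implied by the deposited values and 0.68 with union exon length. The ratio of the members' share of counts was 1.37 on summed FPKM and 1.86 without Mpo. Over all genes, 2148 were called higher and 2951 lower. The counts were 1020 and 1807 with glmTreat, 1070 and 1626 with limma on log2(FPKM + 1), 1090 and 1716 with it unfiltered, and 1365 higher on log2(FPKM + 0.1). Total counts with no factors gave 1491 higher and 3516 lower, moved the median of all genes to -0.10 and left the members' median at 0.78. With the replicate block, 2101 genes were called higher, 2871 lower and 8 members higher, and it changed no member's call. Leaving out 1 library at a time gave 2078 to 2246 genes higher, 2716 to 2885 lower, a members' median of 0.86 to 0.93 and a share ratio of 1.51 to 1.54. The causes of these shifts were not tested.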
